A study of Mus musculus with 4 samples.

Results

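The replication-dependent histone genes were examined in mouse ESCs, given as R1 in the study's methods. They were taken as the rows of the 4 count files whose symbol in the mm9 annotation starts with Hist1h, Hist2h, Hist3h or Hist4h. The annotation holds 70 such symbols, and 59 of them had a row among the 48526 gene rows. The other 11 (2 H2A, 3 H2B, 5 H3 and 1 H4 gene) had none under their mm9 identifier and were not analysed here. The 59 genes comprised 6 H1, 18 H2A, 16 H2B, 7 H3 and 12 H4 genes. By symbol, 46 belong to the Hist1 cluster on chromosome 13, 10 to Hist2 on chromosome 3 and 3 to Hist3 on chromosome 11. *Hist1h2al* lies apart from the other Hist1 genes, at chr13:51298057-51298434. *Hist3h2bb-ps*, *Hist1h2aj* and *Hist2h3c2* are annotated as pseudogenes and were kept.

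RNA-seq was performed on 2 samples labelled as WT ESCs and 2 samples of *Zfp296* KO clone 2 (KO2). The labels name no line, and R1 is the line that the study's methods give for ESC culture. Per the study's methods, KO2 is a single clone of R1 ESCs. It was made with CRISPR/Cas9 and a guide to the first exon of *Zfp296*, a zinc finger gene. Both groups were grown on gelatine in serum with LIF and 2 kinase inhibitors, PD0325901 and CHIR99021. Ribosomal RNA was removed from total RNA before strand-specific libraries were made, so mRNAs without a poly(A) tail were not selected against. The 2 samples of a group are labelled biological replicates, and both KO2 samples come from 1 clone, so effects of the gene and of the clone cannot be told apart.

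Replication-dependent histone genes supply the H2A, H2B, H3 and H4 proteins that package newly made DNA, and the H1 linker histones that bind between nucleosomes. Their transcription and mRNA stability peak in S phase. Their mRNAs lack introns and poly(A) tails and end instead in a short hairpin that is bound by SLBP, whereas replacement variants such as H2A.Z and H3.3 come from polyadenylated mRNAs made throughout the cell cycle.

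The targeted gene and the marker genes were checked first. Counts on *Zfp296* were 31 in both libraries labelled WT, while those labelled KO2 gave 416 and 282, so its RNA was higher in KO2 (log2 fold change 2.31 ± 0.30 SE, edgeR adjusted p = 4.643e-05). This goes against a lower level in a knockout, but a count over the whole gene does not check a small edit in the first exon. Y-linked genes summed to 0 and 1 counts in the WT libraries and to 4782 and 5199 in the KO2 libraries, a further difference between the labelled groups. Its part cannot be told apart from that of the gene or the clone. The study gives R1 as the source line of the clone, but these counts do not show that both groups share a line. Every direction given here therefore rests on the labels. Gene counts summed to 2829914 and 4334499 in WT and to 7470907 and 7437294 in KO2. Of the ESC markers, 9 of 9 matched genes passed the filter on low counts, with *Zfp42* highest (1813 and 1678 CPM in WT, 1475 and 1675 in KO2), and *Sox2*, a pluripotency factor, was lower in KO2 (log2 fold change −0.79, adjusted p = 7.818e-05). Of 10 fibroblast and feeder markers 4 were at 0 in every library and the 10 summed to between 14.53 and 25.28 CPM in WT and between 17.25 and 17.91 in KO2, with *Fbn1* highest (means of 11.6 and 9.36 CPM). Primitive endoderm markers summed to between 307.1 and 318.8 CPM in WT and between 302.9 and 304.6 in KO2, mostly from *Lama1* (means of 226.3 and 232.4 CPM). Neural and mesoderm markers summed to between 93.8 and 101.4 CPM in WT and between 117.8 and 128.6 in KO2, with 3 at 0 in every library and *Nes* highest (means of 92.1 and 116.9 CPM). These 3 lists of other cell types held 0 genes past the test in edgeR or DESeq2 at an adjusted p under 0.05 (2 in edgeR at an unadjusted p under 0.05, *Col4a1* and *Nes*), and their part in the histone values was not tested.

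The feature that joins these genes is their shared 3′ end. The 16-base motif GGNNCTTNTNAGNNCC was found on the coding strand within 150 bases after the stop codon of 63 of 67 coding members (94.0%), against 8 of 22313 other protein-coding genes (0.0359%). One of those 8 is *H2afx*, the only one of 11 replacement variants with a match. The hairpins of the genes past the test and of examples of the other classes are shown with 5 bases on each side, as DNA of the coding strand in mm9, and the capitals mark the motif.

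Hist1h4a: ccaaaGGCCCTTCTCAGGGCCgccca
Hist1h4h: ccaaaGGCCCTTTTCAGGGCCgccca
Hist1h4j: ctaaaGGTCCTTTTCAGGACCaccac
Hist1h2bc: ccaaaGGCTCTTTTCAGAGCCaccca
Hist1h2bk: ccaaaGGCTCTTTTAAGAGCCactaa
Hist1h3b: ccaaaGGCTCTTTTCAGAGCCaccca
Hist1h1a: ccaacGGCTCTTTTCAGAGCCaccaa
Hist2h2ac: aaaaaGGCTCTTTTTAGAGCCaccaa

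These stretches lie at chr13:23852664-23852689 (minus strand), chr13:23623322-23623347 (plus strand), chr13:21827301-21827326 (plus strand), chr13:23776511-23776536 (plus strand), chr13:22128164-22128189 (plus strand), chr13:23844684-23844709 (plus strand), chr13:23856256-23856281 (plus strand) and chr3:96024336-96024361 (minus strand), in the order shown. The 63 motifs had 8 distinct sequences, and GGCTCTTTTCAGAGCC was found in 39 genes. The first 5 bases of the stem were GGCTC in 50 of 50 matched H1, H2A, H2B and H3 genes. In the 13 matched H4 genes they were GGCCC in 11 and GGTCC in 2, so the letters of the stem separated H4 from the other types. The genes with raised RNA, described below, carried stems of both kinds.

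The coding sequences are redundant to different degrees, which limits how well reads can be assigned. The 13 H4 genes encode 1 protein, and the 11 coding H3 genes encode 2. The 6 H1 genes encode 6 proteins, and 10 and 11 distinct proteins come from the 19 H2A and 18 H2B coding genes. Reads that map to several places were left out of the counts. The median share of 50-base exon pieces that occur once in mm9 was 97.7% for H1, 33.0% for H2A, 50.3% for H2B, 41.2% for H3 and 57.0% for H4. H1 genes were thus the best resolved and H2A genes the least. *Hist2h2aa1* and *Hist2h2aa2* had 0% unique pieces and 0 counts in every library. *Hist1h2bq* also had 0% unique pieces in the mm9 exon model but 1172 to 4514 counts. The gene model that was counted may have differed there, which was not tested, and the values of *Hist1h2bq* are uncertain.

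Promoters were compared in the RefSeq table (GRCm38.p6), which covers 250 bases before to 50 bases after the annotated start and held 61 of the 70 genes. Motifs were searched on both strands, and none of them contains another. CCAAT, the letters of the CCAAT box, was found in 52 of 61 (85.2%) against 37.4% of all 32851 promoters. It was present in 49 of 49 promoters of H1, H2A, H2B and H3 genes but in 3 of 12 of H4 genes. TATAAA, the core of a TATA box, was found in 35 of 61 (57.4%) against 13.6% of all. The octamer ATTTGCAT, bound by POU factors, was found in 14 of 61 (23.0%) against 1.74%, and all 14 belonged to the 33 H2A and H2B promoters. Promoters of H2A and H2B genes that start close together in opposite directions overlap, so the same stretch can count for both. The octamer was such a shared stretch for *Hist1h2ah* with *Hist1h2bk*, *Hist1h2ae* with *Hist1h2bg* and *Hist1h2ba* with *Hist1h2aa*. Shares of all 3 motifs therefore count promoters and not separate sites. Promoters of 3 genes past the test are shown, because they span this range, with every match to a motif or its reverse complement in capitals.

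Hist1h2bk: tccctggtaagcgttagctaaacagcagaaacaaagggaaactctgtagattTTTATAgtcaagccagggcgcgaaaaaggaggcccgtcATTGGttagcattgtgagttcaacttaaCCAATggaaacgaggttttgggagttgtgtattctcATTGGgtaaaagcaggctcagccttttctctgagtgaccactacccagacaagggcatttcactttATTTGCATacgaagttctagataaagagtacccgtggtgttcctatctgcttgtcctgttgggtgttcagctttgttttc
Hist1h4a: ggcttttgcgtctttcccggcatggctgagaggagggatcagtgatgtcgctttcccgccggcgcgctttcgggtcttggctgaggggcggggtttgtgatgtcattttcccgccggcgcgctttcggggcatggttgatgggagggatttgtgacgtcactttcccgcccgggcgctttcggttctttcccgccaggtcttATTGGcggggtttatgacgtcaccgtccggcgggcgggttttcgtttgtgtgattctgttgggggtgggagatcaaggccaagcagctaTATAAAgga
Hist1h4h: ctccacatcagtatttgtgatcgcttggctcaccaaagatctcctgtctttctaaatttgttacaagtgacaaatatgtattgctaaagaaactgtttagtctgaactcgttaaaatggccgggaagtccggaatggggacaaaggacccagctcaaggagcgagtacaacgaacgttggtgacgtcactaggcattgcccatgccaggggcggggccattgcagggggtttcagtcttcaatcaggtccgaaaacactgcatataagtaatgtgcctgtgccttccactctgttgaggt

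They lie at chr13:22035571-22035870 (plus strand), chr13:23761200-23761499 (minus strand) and chr13:23530794-23531093 (plus strand) of GRCm38.p6. The *Hist1h2bk* promoter held all 3 motifs, but TATAAA on the reverse strand only. That stretch reads TATAAA on the forward strand in the promoter of the neighbouring *Hist1h2ah*. The *Hist1h4a* promoter held CCAAT on the reverse strand and, after the annotated start, TATAAA, and *Hist1h4h* held none. A match is a description of letters and no match says nothing about a factor.

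To ask whether these genes were expressed at another level in KO2, counts were compared with edgeR's quasi-likelihood test over 12883 genes that passed a filter on low counts, including 50 of the 59 histone genes. Levels are CPM, counts scaled to the TMM-adjusted library size. At an adjusted p under 0.05, 5 histone genes were higher in the libraries labelled KO2, against 2.6% of all tested genes, and 0 were lower, against 3.04% (0 were lower at an unadjusted p under 0.05, and 0 by DESeq2). The 5 genes encode H4 (*Hist1h4a*, *Hist1h4h*), H2B (*Hist1h2bc*, *Hist1h2bk*) and H3 (*Hist1h3b*), and each of the 5 lies in the Hist1 cluster. *Hist1h4a* and *Hist1h2bc* are also on the list of changed transcripts that the study drew from these samples, which is no independent evidence, and *Hist1h4h* is on its list of genes near ESC-enriched NuRD peaks. In these bulk samples, more cells in S phase and more histone RNA per cell cannot be told apart.

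*Hist1h4a* had 35.8 and 26.9 CPM in WT and 69.2 and 56.5 in KO2. It was 2.04-fold higher in the KO2 libraries (log2 fold change 1.03 ± 0.20 SE, edgeR adjusted p = 0.003369), the smallest adjusted p of the histone genes. *Hist1h2bc* had 54.8 and 72.1 CPM in WT and 117.8 and 100.3 in KO2, a log2 fold change of 0.77 ± 0.16 (adjusted p = 0.006177). Both genes kept the 2 groups well apart. *Hist1h3b* had 48.8 and 52.9 CPM in WT and 80.4 and 74.5 in KO2 (log2 fold change 0.60 ± 0.16, adjusted p = 0.02966). *Hist1h2bk* had 116.6 and 132.3 CPM in WT and 193.5 and 161.1 in KO2 (0.51 ± 0.13, adjusted p = 0.03023). *Hist1h4h* had 46.6 and 52.9 CPM in WT and 77.6 and 72.0 in KO2 (0.58 ± 0.16, adjusted p = 0.03869). For each of the 5 genes both samples labelled KO2 lay above both WT samples, as for 25.4% of all tested genes, and for each KO2 replicate 1 lay above KO2 replicate 2.

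**Figure D1:**
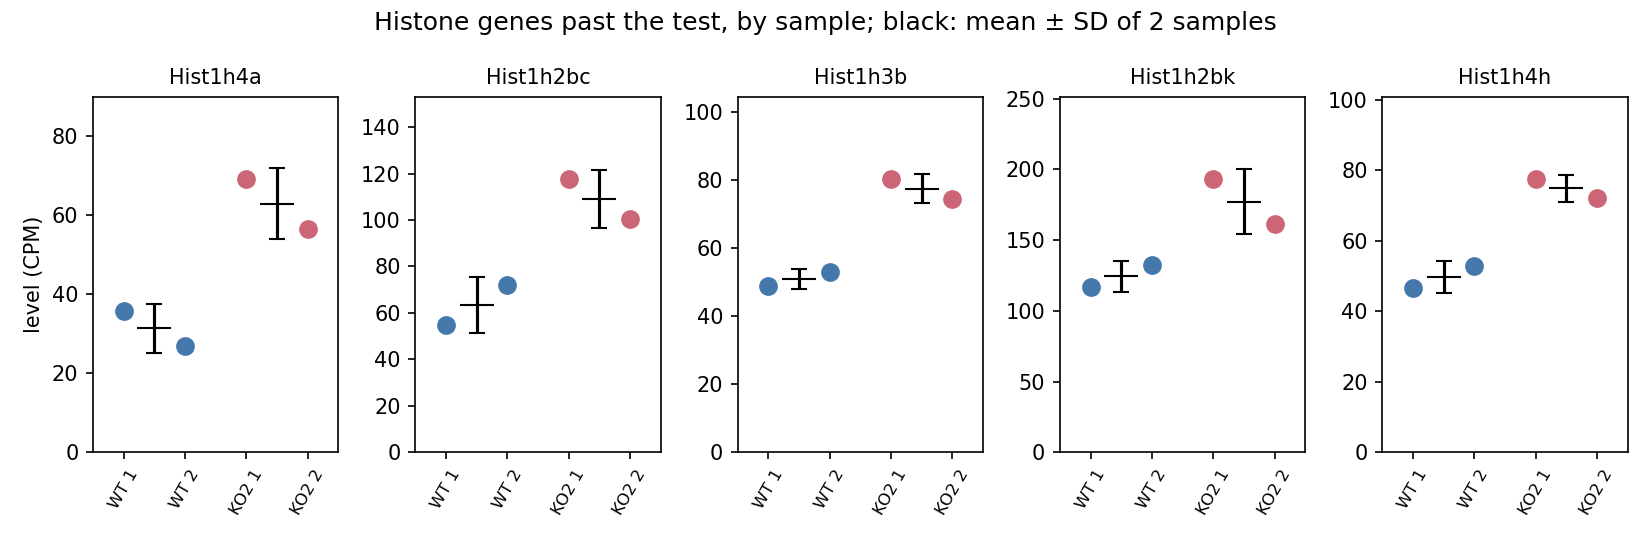
Level in CPM (y axis, from 0) of the 5 histone genes past the test in each of the 4 samples (x axis). Points are samples, black bars the mean ± SD of 2, and in every panel both KO2 points lie above both WT points, as for Hist1h4a (35.8 and 26.9 against 69.2 and 56.5 CPM).

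The calls depended on single libraries. Without KO2 replicate 1, *Hist1h4a* and *Hist1h2bc* alone passed the test. Without WT replicate 1 *Hist1h4a* did alone. Without WT replicate 2 the count was 8, but of the 5 genes *Hist1h2bc* alone was among them, and *Hist1h4a* missed the threshold (log2 fold change 0.81, edgeR adjusted p = 0.05657). Without KO2 replicate 2 it was 9, with 4 of the 5 among them and *Hist1h4h* lost (adjusted p = 0.0605). When libraries were scaled by the ERCC spike-in RNAs instead, 0 passed (7 were higher at an unadjusted p under 0.05), while the log2 fold change of *Hist1h4a* was 1.11 (adjusted p = 0.1037). DESeq2 called 3 (*Hist1h4a*, *Hist1h2bc* and *Hist1h2bk*).

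Beyond the calls, 46 of the 50 tested histone genes had a positive log2 fold change in the libraries labelled KO2, against 51.4% of all tested genes, and 26 were higher at an unadjusted p under 0.05, against 9.8%. Their median log2 fold change was 0.45, against 0.01 for all tested genes, and stayed 0.45 with *Hist3h2a*, which had no WT count, set to its lower bound. Both KO2 samples lay above both WT samples for 31 of the 50, against that 25.4%, and below for 0, against 23.4%, while the groups overlapped for 19. A gene that is low in WT could pass the filter through KO2 alone: 9 of the 50 had a WT library under 10 counts. Of the other 41, 37 had a positive fold change, with a median of 0.40, and 23 lay above WT in both KO2 samples. Without KO2 replicate 1, 39 of 49 were positive and the median was 0.28, and without KO2 replicate 2 it was 0.62.

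**Figure D2:**
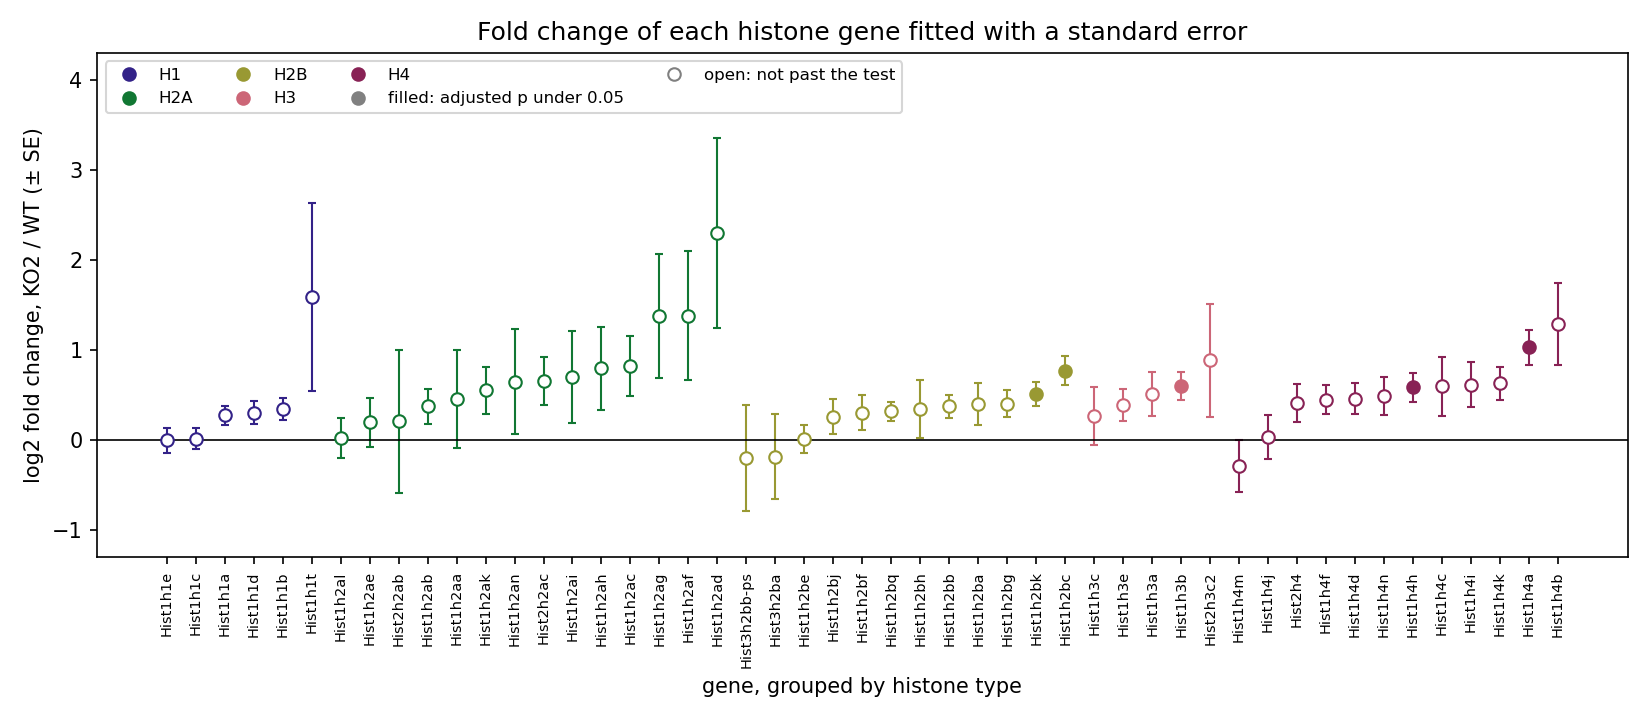
Log2 fold change of KO2 over WT ± SE (y axis) for the 49 histone genes fitted with a standard error, grouped by histone type (x axis, colours), with filled points for the 5 genes past the test. Points lie mostly above 0 in all 5 types, and the SE is wide for genes with few counts, such as Hist1h2ad.

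The samples of a group were not alike. KO2 replicate 1 lay above KO2 replicate 2 for 42 of the 50 histone genes, against 50.4% of all tested genes, and WT replicate 1 lay above WT replicate 2 for 16, against 49.5%. On the log2(CPM + 1) scale and relative to the mean of the 4 samples, the median histone gene stood at −0.33 and −0.16 in WT and at 0.37 and 0.10 in KO2. The step between the KO2 samples was thus about as large as that between WT replicate 2 and KO2 replicate 2. Histone genes took 0.345% (95% Wilson interval 0.338 to 0.352) and 0.389% (0.383 to 0.395) of gene counts in WT, and 0.537% (0.531 to 0.542) and 0.448% (0.443 to 0.453) in KO2. These intervals cover counting error only.

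**Figure D3:**
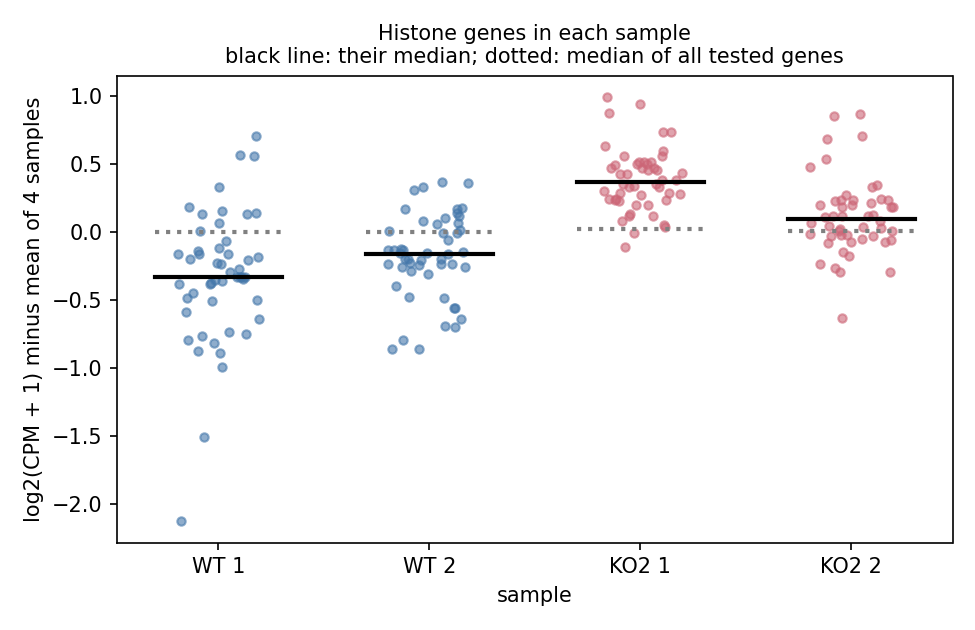
Log2(CPM + 1) minus the mean of the 4 samples (y axis) for the 50 tested histone genes in each sample (x axis), with their median as a black line and the median of all tested genes dotted. The histone medians are −0.33, −0.16, 0.37 and 0.10, in the order of the samples, and the dotted lines stay near 0.

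Genes for snoRNAs, which also lack poly(A) tails, were looked at beside them, as a list added after the data were seen. Of 93 tested, 12 (12.9%) were higher in KO2, against 2.6% of all tested genes, and 0 lower, against 3.04% (edgeR, adjusted p under 0.05, with 3 lower at an unadjusted p under 0.05 and 0 by DESeq2). Their median log2 fold change was 0.57. KO2 replicate 1 lay above replicate 2 for 76 of the 93, against 50.4% of all tested genes, as it did for most histone genes, while WT replicate 1 lay above replicate 2 for 53, against 49.5%, which was not so for most histone genes. Without WT replicate 1 the 12 were 4, without WT replicate 2 or KO2 replicate 1 they were 6, and without KO2 replicate 2 they were 23. Of a further list of 16 other noncoding RNAs without poly(A) tails 0 matched a row, so it gave no value. The part of such a library difference in the histone values was not tested.

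Among counted reads, H1 genes, which encode the linker histones, gave the highest levels and the lowest ratio between the groups of the 5 types. The median share of unique pieces was 97.7% for H1 but 33.0% to 57.0% for the other types. The 11 genes without a row were also of other types. Levels and shares of the types are therefore those of counted reads and may not follow RNA amounts. Per kilobase of exon *Hist1h1a* was highest (mean of 932.8 CPM per kb over the 4 samples), followed by *Hist1h1b* (587.2) and *Hist1h1c* (259.2). *Hist1h1a* had 663.4 and 600.4 CPM in WT and 818.7 and 704.7 in KO2, and *Hist1h1b* 332.4 and 435.7 against 509.1 and 467.9. For both the groups did not overlap, but neither passed the test (log2 fold change 0.27 ± 0.11, adjusted p = 0.1684, and 0.34 ± 0.12, adjusted p = 0.1176). *Hist1h1c*, with 360.4 and 444.0 CPM in WT and 414.2 and 398.7 in KO2, overlapped (0.01 ± 0.11, adjusted p = 0.9681), and its sign turned when WT replicate 1 or KO2 replicate 1 was left out (−0.13 and −0.01). The 6 H1 genes took 46% of all histone counts, and their summed level was 1796 and 1904 CPM in WT and 2254 and 2047 in KO2, a ratio of 1.16.

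H2A genes were low and poorly resolved. None of the 15 tested passed the test in edgeR or DESeq2 (7 were higher at an unadjusted p under 0.05). All 15 had positive fold changes, and their median was 0.65. Of them, *Hist3h2a*, *Hist1h2ah*, *Hist1h2ag*, *Hist1h2af*, *Hist1h2ad* and *Hist2h2ab* had a WT library under 10 counts. Such genes could pass the filter through KO2 alone, so positive values were favoured among them. The highest per kilobase were *Hist1h2ab*, *Hist1h2al* and *Hist2h2ac* (means of 83.6, 68.9 and 63.9 CPM per kb). *Hist1h2ab* had 35.4 and 38.3 CPM in WT and 54.6 and 40.9 in KO2 (log2 fold change 0.37 ± 0.20, adjusted p = 0.313). *Hist1h2al*, which is on the study's list of changed proteins, had 23.9 and 27.6 CPM in WT and 27.0 and 25.7 in KO2, so the groups overlapped (0.02 ± 0.23, adjusted p = 0.9751). *Hist2h2ac* had 25.0 and 26.7 CPM in WT and 53.4 and 27.9 in KO2, where KO2 replicate 1 stood apart (0.65 ± 0.27, adjusted p = 0.1776, and 0.11 without KO2 replicate 1). *Hist1h2ah*, on the study's list of genes near ZFP296 peaks, had 2.24 and 10.9 CPM in WT and 11.4 and 14.0 in KO2 (0.79 ± 0.46, adjusted p = 0.3502), and the WT libraries decided its value (0.23 without WT replicate 1 and 2.50 without WT replicate 2, edgeR adjusted p = 0.7919 and 0.04457). *Hist3h2a*, named here after its values were seen, had 0 counts in both WT libraries, against 15 and 16 in KO2. Set against 3 counts per WT library it was at least 2.21-fold higher (adjusted p = 0.08414), but it overlaps *Trim17* on the same strand over 35.6% of its exons.

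H2B genes held 2 of the 5 calls and 32% of histone counts. *Hist1h2bq*, whose values are uncertain as said above, had the most counts of them (436.8 and 438.8 CPM in WT, 572.4 and 516.4 in KO2). It is part of this share and of the H2B and Hist1 sums below, and its level per kilobase rests on the mm9 exon model. The highest per kilobase was *Hist1h2bb* (555.8 CPM per kb), then *Hist1h2bk* (315.0) and *Hist1h2bg* (223.4). *Hist1h2bb* had 197.1 and 256.8 CPM in WT and 296.4 and 292.3 in KO2 (log2 fold change 0.37 ± 0.13, adjusted p = 0.09809). *Hist1h2bg* had 95.4 and 141.5 CPM in WT and 155.5 and 159.9 in KO2 (0.40 ± 0.15, adjusted p = 0.1474). Neither pair of groups overlapped, yet neither gene passed. *Hist1h2br*, also on those lists, had 1 count in each WT library and 9 and 4 in KO2 and was under the filter. The 12 tested H2B genes ranged from −0.20 to 0.77 with a median of 0.33.

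H3 is the type with the most genes missing, since 5 of 12 had no row and 2 of the 7 others had at most 2 counts in any library. *Hist1h3b*, described above, was highest (103.5 CPM per kb), followed by *Hist1h3c* (63.4) and *Hist1h3e* (56.2). *Hist1h3c* had 54.8 and 19.9 CPM in WT and 54.6 and 30.5 in KO2, so the spread within each group exceeded the difference between them (log2 fold change 0.26 ± 0.32, adjusted p = 0.7283), and the sign turned without WT replicate 2 or KO2 replicate 1 (−0.36 and −0.19). *Hist1h3e* had 39.5 and 41.8 CPM in WT and 58.8 and 47.6 in KO2 (0.38 ± 0.18, adjusted p = 0.2525). The 5 tested H3 genes had log2 fold changes from 0.26 to 0.88. The highest was that of the pseudogene *Hist2h3c2*, which had 12 and 7 counts in WT.

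H4 genes, whose protein is the same from every copy, differed widely in counted level and less in fold change. Their unique pieces ranged from 7.1% (*Hist1h4n*) to 99% (*Hist2h4*), and their exon models from 312 bases (*Hist1h4k*) to 1608 (*Hist2h4*). The part of these in the levels was not tested. *Hist1h4d*, *Hist1h4f* and *Hist1h4k* were the highest per kilobase (238.9, 232.4 and 155.3 CPM per kb). *Hist1h4d* had 82.0 and 76.6 CPM in WT and 129.7 and 87.3 in KO2 (log2 fold change 0.46 ± 0.17, adjusted p = 0.1336). *Hist1h4f* had 73.8 and 79.9 CPM in WT and 122.5 and 87.3 in KO2 (0.45 ± 0.16, adjusted p = 0.1276). In both, KO2 replicate 1 stood apart from the other 3 samples. *Hist1h4k* had 32.8 and 42.8 CPM in WT and 63.5 and 54.7 in KO2 and just missed the threshold (0.63 ± 0.19, adjusted p = 0.05305). The 12 tested H4 genes ranged from −0.29 to 1.29. The highest was *Hist1h4b*, which had 4 and 53 counts in WT. For 9 of the 12 both KO2 samples lay above both WT samples, against 25.4% of all tested genes. For 12 of 12 KO2 replicate 1 lay above KO2 replicate 2, against 50.4% of all tested genes.

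Sums over all 59 genes, which need no filter, were 3637 and 3981 CPM in WT and 5083 and 4455 in KO2, a log2 ratio of 0.32. By type the ratio of the means was 1.16 for H1, 1.43 for H2A (151.3 and 198.5 against 286.2 and 215.6 CPM), 1.29 for H2B (1088 and 1291 against 1598 and 1472), 1.36 for H3 (171.4 and 139.2 against 239.8 and 183.7) and 1.41 for H4 (429.7 and 448.5 against 704.9 and 536.7). In each type both KO2 samples lay above both WT samples. For H2A and for H3 the gap between the nearest WT and KO2 samples was smaller than the spread within either group. For H1, for H4 and for all 59 genes this gap was smaller than the spread within KO2. For H2B it was smaller than the spread within WT. Without KO2 replicate 1 the log2 ratio fell from 0.52 to 0.31 for H2A (0.34 without WT replicate 1), from 0.45 to 0.25 for H3 and from 0.50 to 0.29 for H4.

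**Figure D4:**
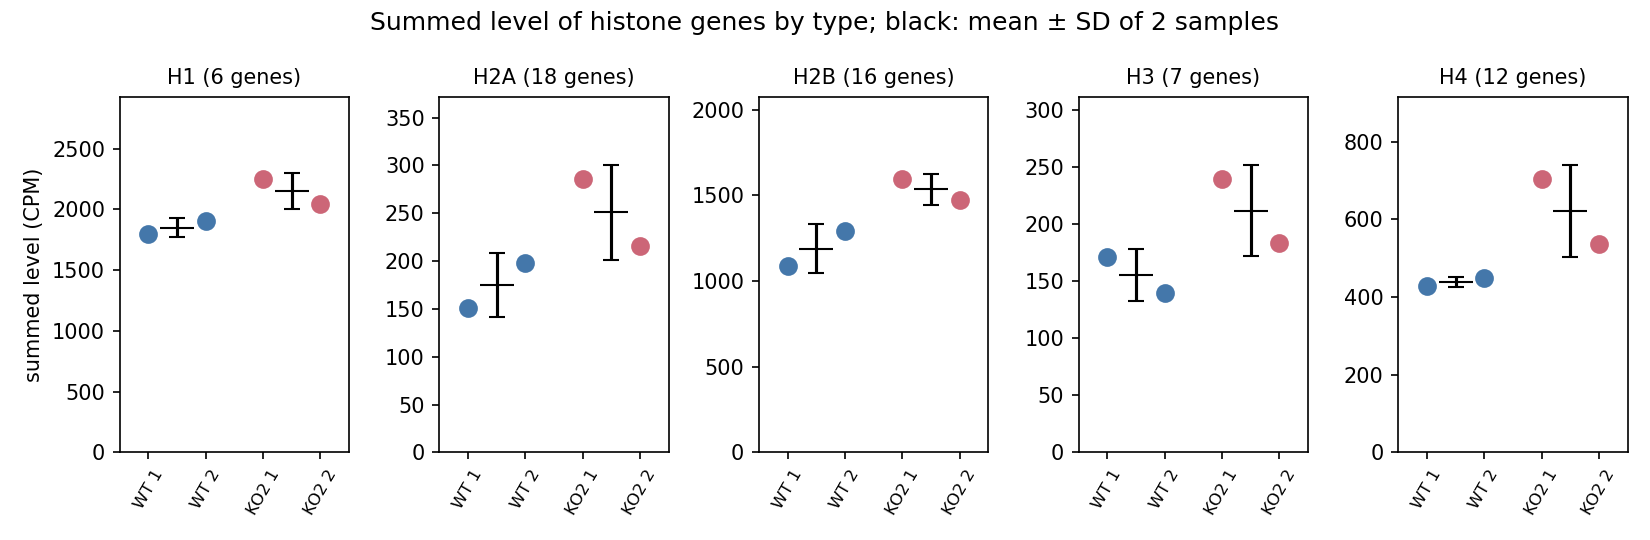
Summed level in CPM (y axis, from 0, own scale per panel) of the H1, H2A, H2B, H3 and H4 genes in each sample (x axis), with black bars for the mean ± SD of 2 samples. In all 5 panels both KO2 points lie above both WT points, with ratios of means from 1.16 (H1) to 1.43 (H2A), and KO2 1 is the highest sample.

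By cluster, the 46 Hist1 genes summed to 3560 and 3904 CPM in WT and 4954 and 4372 in KO2 (log2 ratio 0.32). The 2 main blocks of the Hist1 cluster, split at a gap of over 200000 bases, had ratios of 1.29 and 1.23. The 10 Hist2 genes summed to 64.1 and 68.0 CPM in WT and 117.8 and 72.5 in KO2 (ratio 1.44), and without KO2 replicate 1 their log2 ratio fell from 0.53 to 0.14. The 3 Hist3 genes summed to 13.0 and 8.51 CPM in WT and 12.1 and 10.03 in KO2, which overlapped (ratio 1.02). Of the 10 Hist2 genes 6 were under the filter, 3 of them with 0 counts in every library.

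The 13 pairs of an H2A and an H2B gene that start within 400 bases of each other in opposite directions share 1 promoter region. In 7 pairs both genes were tested. For *Hist1h2ah* and *Hist1h2bk*, whose start sites are separated by 177 bases, levels were 18.1 and 315.0 CPM per kb, and log2 fold changes 0.79 and 0.51. For *Hist1h2ac* and *Hist1h2bc*, separated by 250 bases, they were 6.05 and 117.2 CPM per kb and 0.82 and 0.77. In 6 of the 7 pairs both partners had positive fold changes. The other pair was the pseudogene *Hist3h2bb-ps* (log2 fold change −0.20) with *Hist3h2a*. Among the H2A genes of the 7 pairs, *Hist1h2ah*, *Hist1h2ag*, *Hist1h2ad* and *Hist3h2a* had a WT library under 10 counts. In the 9 pairs in which both genes had a row, the H2B gene had the higher level per kilobase in 7, and the H2A gene in the other 2 (*Hist1h2an* with *Hist1h2bp*, 11.3 and 3.29 CPM per kb, and *Hist2h2ac* with *Hist2h2be*, 63.9 and 0.41). As a group, H2A genes had a lower share of unique pieces, but within the 7 pairs with both genes tested the H2A gene mostly had the higher share. It was 88.4% for *Hist1h2ac* against 49.2% for *Hist1h2bc*, and 33.0% for *Hist1h2ah* against 26.3% for *Hist1h2bk*. *Hist1h2ag* with *Hist1h2bj* went the other way (18.2% against 37.0%). The part of unique sequence in these levels was not tested.

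Positive fold changes were found both in well resolved and in poorly resolved genes. Of 30 tested histone genes with at least 50% unique pieces 27 had positive fold changes, with a median of 0.43. Of the 20 under 50%, 19 did, with a median of 0.50. HTSeq's ambiguous reads made up 3.76% and 2.63% of all counted alignments in WT and 2.08% and 4.06% in KO2, and reads without a unique place 37.0% and 40.4% against 35.6% and 35.6%.

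**Figure D5:**
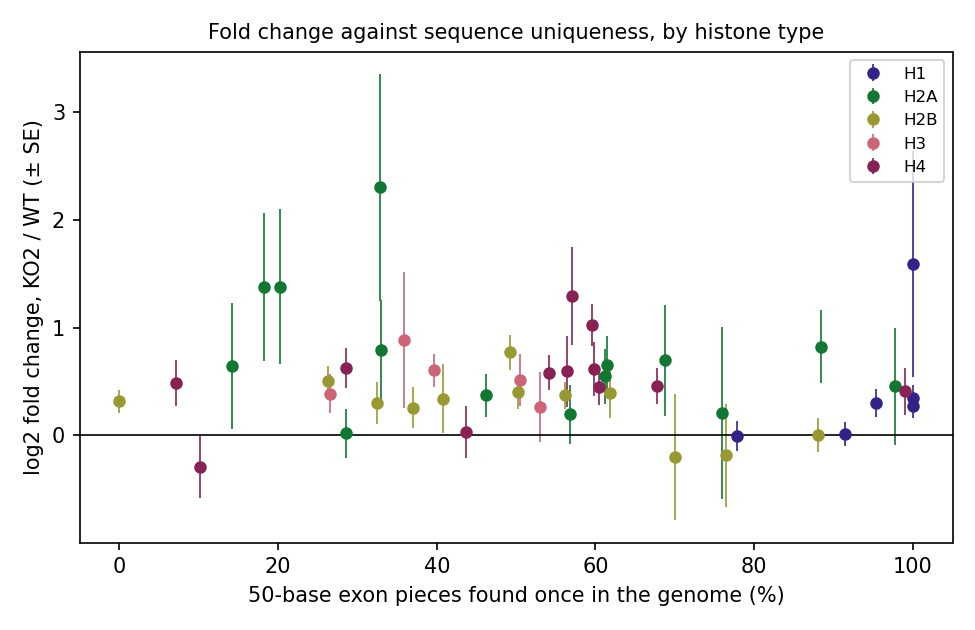
Log2 fold change of KO2 over WT ± SE (y axis) against the share of 50-base exon pieces found once in mm9 (x axis, %) for 49 histone genes, coloured by type. H1 genes lie at the right and the other types spread more widely, and positive values are found across the range, with medians of 0.43 at 50% or more and 0.50 below.

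Genes around the histone mRNA were compared by lists. Of 25 tested genes for histone mRNA transcription and 3′ end processing, 0 were higher (also at an unadjusted p under 0.05 and by DESeq2). In KO2 1 (4%) was lower, near the 3.04% of all tested genes (3 at an unadjusted p under 0.05, 1 by DESeq2). The gene past the test was *Ncbp1*, a subunit of the nuclear cap-binding complex (log2 fold change −0.47 ± 0.13, edgeR adjusted p = 0.0345). The median of the list was −0.15. *Slbp*, which encodes the hairpin-binding protein and is named here after its values were seen, had 232.2 and 245.7 CPM in WT and 190.2 and 220.6 in KO2 (−0.22 ± 0.12, adjusted p = 0.324). Of 24 chaperone and histone acetylation genes 1 (4.17%) was higher, near the 2.6% of all tested genes, *Hat1*, the acetyltransferase of new H4, with 547.1 and 510.4 CPM in WT and 842.9 and 888.4 in KO2 (0.71 ± 0.10, adjusted p = 0.0002338). From the same list 0 were lower, against 3.04% of all tested genes (3 at an unadjusted p under 0.05, 0 by DESeq2). Of 10 tested replacement variants 0 passed in edgeR or DESeq2 (1 was higher and 1 lower at an unadjusted p under 0.05), and the median was 0.05.

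The medians of the cell cycle lists lay near 0. Of 45 S phase and replication genes 0 were higher (2 at an unadjusted p under 0.05, 0 by DESeq2). In KO2 1 was lower (3 at an unadjusted p under 0.05, 1 by DESeq2). The gene past the test was *Pola1*, the catalytic subunit of DNA polymerase alpha (log2 fold change −0.40 ± 0.11, edgeR adjusted p = 0.03588). This list had a median of 0.05 and sums of 7774 to 7831 CPM in WT and 7641 to 7712 in KO2. Of 22 G2 and M phase genes 1 was higher, *Cdk1*, the kinase that drives mitotic entry, with 172.5 and 142.0 CPM in WT and 223.2 and 220.2 in KO2 (0.50 ± 0.12, adjusted p = 0.02319), and the median was 0.03. For both lists 2.6% of all tested genes higher and 3.04% lower are the background.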

How the data were processed

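Per the labels and the study's methods, the authors used HISAT2 to map the reads of these strand-specific, rRNA-depleted libraries to mm9 and HTSeq to count reads on genes. One table of raw counts, without normalization or pooling, was deposited by the authors for each sample. Versions, annotation and counting options are not given in the sources used here. HTSeq leaves out reads with several places, and its summary rows and the ERCC rows stayed out of library sizes and tests; reads on no gene made up 15.2% to 18.2% of all counted alignments. A count of 3 equals 1.12, 0.71, 0.38 and 0.40 CPM in WT 1, WT 2, KO2 1 and KO2 2. KO2 was compared with WT in edgeR 4.0.16 (R 4.3.3; glmQLFit with legacy=FALSE, glmQLFTest, TMM, filterByExpr at min.count 10 and min.total.count 15, group as the only term), with Benjamini-Hochberg adjustment over all tested genes and a threshold of 0.05. SEs are from the fitted model. Levels per kilobase use exon lengths of the mm9 annotation and are approximate, since the counted models may differ. Unique pieces, hairpins, pairs and encoded proteins were computed from the mm9 genome and that annotation; of several isoforms the protein closest in length to the known histone was used. Alternatives were RLE and ERCC scaling, other filters, DESeq2 1.42.0, the older edgeR method and leaving out each sample. No p was computed for a list or a sum. The test was checked on simulated data for KO2 against WT with 200 changed genes among 12583 tested. There it called 72% of genes set 2-fold higher, 52.1% of genes set 2-fold lower and 0.113% of unchanged genes. The simulation gave every gene and sample the same spread beyond counting error, unlike the data, so these shares may not hold for the data. The genes and lists were chosen with earlier results of these data known. Named are every gene past the test, the 3 highest per kilobase of each type, genes on the study's lists, listed genes past the test and the highest marker of each cell type. The replicates are labelled biological, but nothing in the labels says how separate the cultures were, so p-values measure the spread between these samples.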

Additional observations from a re-analysis of the deposited data

How the results depend on the processing

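The count of 5 histone genes higher in KO2, all of which are single genes past the test, stayed at 5 or 6 with RLE scaling, with TMM without histone, mitochondrial and small RNA genes, with at least 10 counts in every sample and with the older edgeR method. It was 0 with ERCC scaling (7 at an unadjusted p under 0.05), 0 with no filter (18), 3 with DESeq2, and 1 to 9 when 1 sample was left out (1 without WT replicate 1, 2 without KO2 replicate 1). With ERCC scaling 90 genes in all were higher and 73 lower, so fewer genes passed, and with no filter 25397 genes were tested and 29 and 32 passed. The cause of the other changes was not tested. 0 were lower under any of the 12 settings. With the replicate number as a replicate block the count was 10, but same-numbered samples did not deviate together (r = −0.0166 across genes), so the numbers were not used as pairs. Genes of the other lists past the test, snoRNA genes not counted, numbered 5, 0 with ERCC scaling, 2 with no filter and 2 to 7 with 1 sample left out. The 12 snoRNA genes higher in KO2, recomputed after seeing the data, were 5 with ERCC scaling, 0 with no filter and 4 to 23 with 1 sample left out. The median log2 fold change of the histone genes ranged from 0.28 to 0.62 with 1 sample left out. The summed log2 ratio was 0.30 for H1 with ERCC scaling, against 0.22. With 1 sample left out it ranged from 0.31 to 0.73 for H2A, from 0.25 to 0.62 for H3, from 0.29 to 0.68 for H4, from 0.14 to 0.83 for Hist2 and from −0.24 to 0.38 for Hist3, which turned sign. Log2 fold changes that turned sign with 1 sample left out ranged from −0.13 to 0.17 (*Hist1h1c*), from −0.36 to 1.10 (*Hist1h3c*) and from −0.070 to 0.14 (*Hist1h2al*). Depth was lowest in WT replicate 1, and genes with fewer than 10 counts in a WT library have wide errors. ERCC scaling moved the median of all genes to 0.09.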
